A study of Homo sapiens with 8 samples.

Results

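The genes described here are 54 genes of G2 phase and mitosis, given as a list of symbols, and all 54 of them were among the 19775 genes measured in HuCCT1 cells, an established line of bile duct cancer. Each gene was represented by 1 probe set, the one with the highest mean over 8 expression arrays. Cells of 4 samples expressed a control shRNA, called scrambled in the design text, and cells of 4 samples an shRNA against YAP1 that the labels name YAP shRNA 1, the only shRNA against YAP1 analysed here. Doxycycline at 100 ng/ml, begun 3 days before seeding, induced the shRNA in both groups, so the controls carry the drug too. The series title speaks of overexpression, but YAP1, the Hippo pathway coactivator that the shRNA targets, fell 4.41-fold, from a mean log2 value of 12.64 ± 0.086 in controls to 10.50 ± 0.070 (SD over 4 arrays each). Nothing in the labels ties the replicates to separate cultures, and a p-value here may therefore reflect only technical spread.

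Cells that leave S phase build up cyclin B and its kinase CDK1, which drive entry into mitosis when CDC25 phosphatases remove inhibitory phosphates. Aurora, Polo-like and related kinases then assemble the spindle, kinesins move its microtubules, and kinetochores built on CENPA chromatin tie chromosomes to it. The spindle checkpoint holds back the anaphase-promoting complex until all chromosomes are attached, after which securin and cyclin B are destroyed and the cleavage furrow divides the cell. Most of these genes are transcribed late in the cell cycle, under the DREAM repressor in resting cells and under MYBL2 and FOXM1 in cycling ones, so their transcripts are widely read as markers of dividing cells. YAP is known as a growth-promoting coactivator, and several mitotic genes have been described as its targets in other cells.

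One control array stood apart. Array medians over all probe sets lay between 6.22 and 6.25, but the mean correlation of control shRNA replicate 4 with its own group was 0.9967, against 0.9978 to 0.9988 for the other arrays. Averaged over the 54 genes, the log2 value was 11.64, 11.62, 11.63 and 11.52 in control shRNA replicates 1 to 4. It lay between 11.50 and 11.53 with the YAP shRNA, so by this mean replicate 4 stood at the YAP shRNA level. CENPE and CENPF, at -1.06 and -0.84 relative to the mean of the other controls, weighed most on it. The median deviation of the 54 genes from their control mean was -0.051 in replicate 4. It was 0.0048 to 0.029 in the other controls and -0.11 to -0.088 with the YAP shRNA, so the list as a whole lay between. That array was the lowest of the 4 control arrays for 33 of the 54 genes and the highest for 7, so counts are also given without it. Because it was low in these same genes, more falls without it follow in part from that choice. Such counts show how far results rest on this array and are not independent support for a fall. The cells carried the marks of their label: KRT7, KRT19, KRT18, KRT8, EPCAM, CDH1, SOX9 and MUC1, 8 of 9 measured biliary epithelial markers, lay above the median gene level, and SPP1 did not. All 5 leukocyte, 5 endothelial and 5 hepatocyte markers measured lay below that level, and so did 5 of 6 fibroblast markers, COL1A1 being the exception. Of these markers of other cell types, the leukocyte genes CD14 and LYZ rose by 0.46 and 0.86 and PTPRC fell by 0.22, and COL1A1 rose by 0.52. The mean log2 value over the 5 leukocyte markers was 4.87 to 5.05 in control arrays and 5.11 to 5.24 with the YAP shRNA, with PTPRC and CD3E at percentiles 10.4 and 4.28 of gene level, and over the 6 fibroblast markers 5.66 to 5.98 and 5.83 to 5.94. Their part in the results was not tested.

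A minority of the mitotic genes fell with the YAP shRNA, and the falls were small. Of the 54 genes, 13 fell and 1 rose (limma; p adjusted over all genes by Benjamini-Hochberg, called below 0.05), where 7.17% of all genes tested fell and 9.49% rose. Nearly all of these genes gave bright probe sets, 53 of 54 above the median gene level, and among all genes above that level 11.4% fell and 15.2% rose. The falls ranged from 1.11-fold in RACGAP1 to 1.33-fold in PIMREG, and all 14 changes were under 1.5-fold. The median log2 fold change (YAP shRNA minus control shRNA) of the 54 genes was -0.10, beside 0.01 over all genes, and 47 of the 54 had a value below 0, beside 46.1% of all genes. The groups did not overlap, with YAP shRNA lower, for 21 genes and, with YAP shRNA higher, for 1, where 10.9% of all genes, or 18.1% of those above the median level, showed the former and 13.4%, or 22.1%, the latter. In RNA from whole cultures, fewer cells in G2 and mitosis and less of each transcript per cell cannot be told apart. Without control shRNA replicate 4, 22 genes fell and 1 rose, where 8.25% of all genes fell and 11.4% rose, and the median became -0.12.

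**Figure D1:**
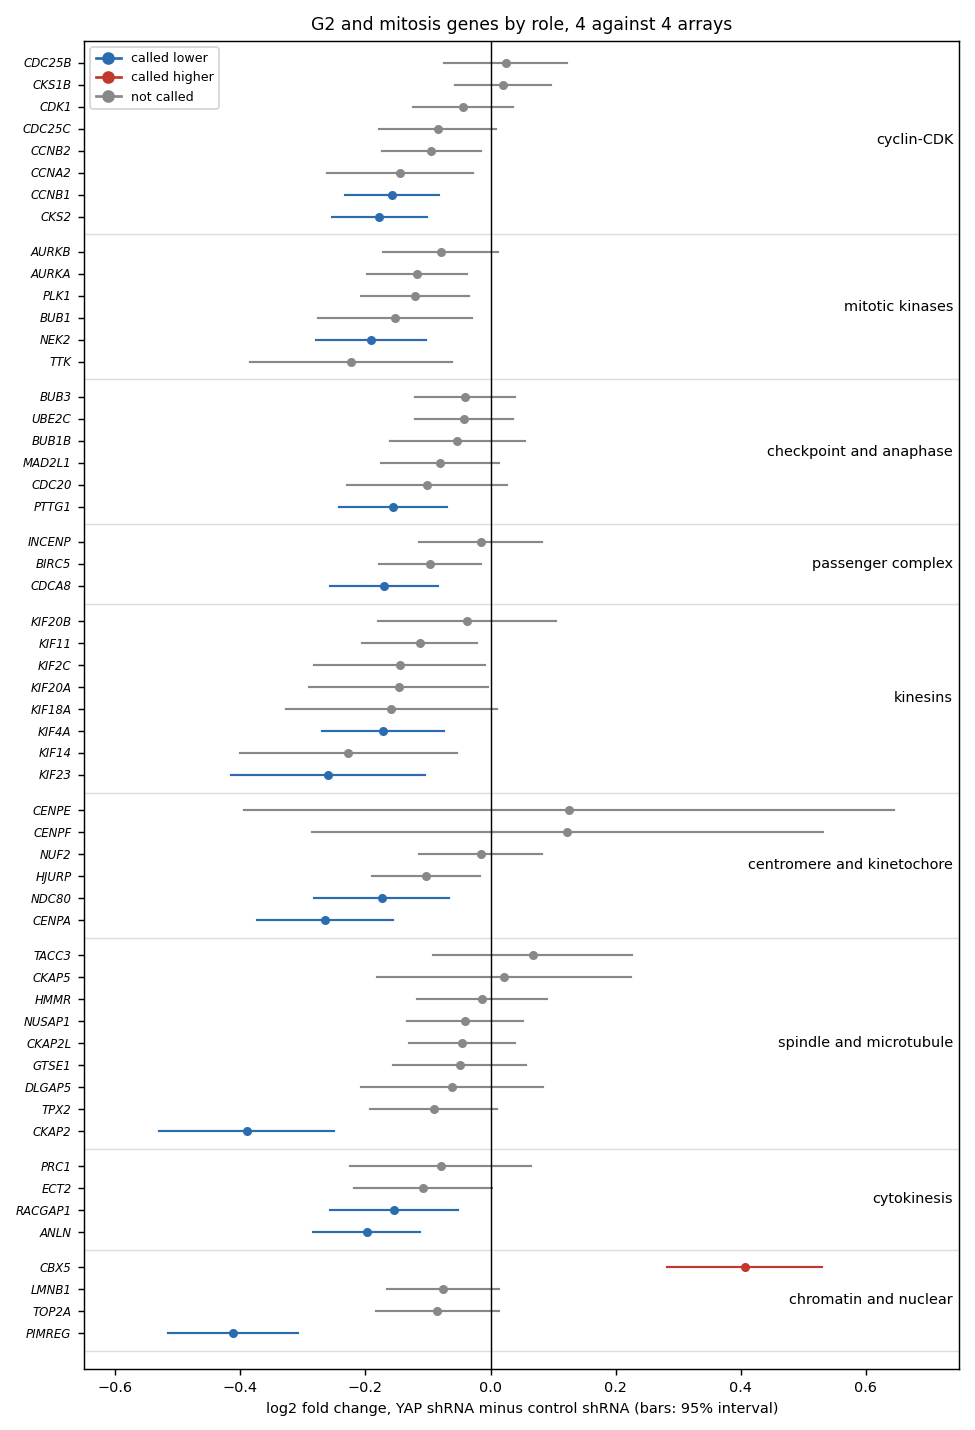
Log2 fold change (YAP shRNA minus control shRNA, horizontal axis) of each of the 54 genes with its 95% interval from limma, grouped by role. Blue marks the 13 genes that fell, red the 1 that rose (CBX5) and grey the 40 not called; most points lie left of 0, and the intervals of CENPE and CENPF are the widest.

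Of the 13 falls, 8 were called whichever 1 of the 8 arrays was left out, and 5 (KIF23, KIF4A, NDC80, PTTG1 and RACGAP1) were not. The limma adjusted p of these 5 rose above 0.05 in 6 to 7 of the 8 omissions, to at most 0.0753 in KIF23, 0.0788 in KIF4A, 0.107 in NDC80, 0.0749 in PTTG1 and 0.127 in RACGAP1. NDC80 kept its call only without control shRNA replicate 4 and RACGAP1 only without control shRNA replicate 3. KIF23 kept it without control shRNA replicate 4 or YAP shRNA replicate 2, and KIF4A and PTTG1 without control shRNA replicate 4 or YAP shRNA replicate 1.

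The 40 genes not called were not shown to be unchanged. Of these, 34 had a log2 fold change below 0, and 12 had an unadjusted p under 0.05. Their 95% intervals ran, at the median, from -0.18 to 0.02, and for 22 of the 40 the lower bound lay beyond -0.18, the median log2 fold change of the 13 fallen genes. For 25 of the 40 the lower bound was above -0.2, and the lowest bound, that of KIF14, was -0.40. The genes nearest the threshold were RACGAP1, just inside it (limma adjusted p = 0.0497), and AURKA, just outside (limma adjusted p = 0.0538).

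What the genes share in sequence shows in their promoters. The cell cycle genes homology region, or CHR, is the element through which DREAM and the MYBL2 and FOXM1 complexes are known to act, and the CCAAT box binds NF-Y. RefSeq windows on GRCh38.p14, each of 250 bases before and 50 after a start site, were held for 46 of the 54 genes, 59 windows in all. A CHR (TTTGAA or TTCGAA, either strand) was found in 37 of the 59 windows (62.7%), against 16.4% of all 35116 windows and 12.3% of those of genes above the median level. A CCAAT box (CCAAT, either strand) was found in 76.3%, against 34.6% of all windows, and the TEAD motif CATTCC (either strand), the site of YAP's DNA-binding partners, in 7 windows (11.9%), against 4928 of all windows and 11.1% of those of genes above the median level. Matches are letters in a window and not evidence of binding.

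The CHR was not limited to the fallen genes. It was found in 7 of the 11 fallen genes with a window and in 27 of the 34 genes not called, a difference that was not tested. The TEAD motif was found in none of the 11 and in 7 of the 34, a difference that was also not tested. Of all genes with a window and above the median level, 1195 of 8255 held it. The 100 bases before the start site follow for 8 fallen genes and for CCNB2 and PLK1, which were not called, 5′ to 3′ on the gene's strand with CHR and CCAAT matches in capitals. In CDCA8 the CHR and a CCAAT match share a base, and in ANLN a pair of CHR matches lie end to end. CCNB1 shows a pair of CCAAT boxes with no CHR of these letters, and CKAP2, the second steepest fall, shows neither.
CENPA, chr2:26785956-26786055, plus strand: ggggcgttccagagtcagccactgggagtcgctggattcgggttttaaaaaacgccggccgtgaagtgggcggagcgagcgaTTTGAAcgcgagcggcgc
KIF23, chr15:69414249-69414348, plus strand: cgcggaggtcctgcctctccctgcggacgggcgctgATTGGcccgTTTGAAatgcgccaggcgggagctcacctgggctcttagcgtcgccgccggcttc
KIF4A, chrX:70290004-70290103, plus strand: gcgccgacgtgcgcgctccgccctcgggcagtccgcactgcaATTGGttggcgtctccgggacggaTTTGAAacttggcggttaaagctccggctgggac
ANLN, chr7:36389762-36389861, plus strand: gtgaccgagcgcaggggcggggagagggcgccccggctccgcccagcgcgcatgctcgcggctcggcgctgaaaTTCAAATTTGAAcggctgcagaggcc
CDCA8, chr1:37692416-37692515, plus strand: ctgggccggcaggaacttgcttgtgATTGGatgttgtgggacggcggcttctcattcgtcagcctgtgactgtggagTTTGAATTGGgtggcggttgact
CKS2, chr9:89311095-89311194, plus strand: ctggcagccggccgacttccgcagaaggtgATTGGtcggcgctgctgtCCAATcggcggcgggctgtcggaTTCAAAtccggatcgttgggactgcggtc
CCNB1, chr5:69167050-69167149, plus strand: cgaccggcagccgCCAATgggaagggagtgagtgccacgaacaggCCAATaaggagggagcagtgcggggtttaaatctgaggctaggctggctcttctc
CKAP2, chr13:52455888-52455987, plus strand: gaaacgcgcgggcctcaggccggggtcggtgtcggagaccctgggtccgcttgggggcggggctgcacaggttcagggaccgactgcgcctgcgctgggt
CCNB2, chr15:59105046-59105145, plus strand: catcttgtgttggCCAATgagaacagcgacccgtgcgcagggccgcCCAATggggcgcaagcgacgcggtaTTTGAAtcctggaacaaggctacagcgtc
PLK1, chr16:23678789-23678888, plus strand: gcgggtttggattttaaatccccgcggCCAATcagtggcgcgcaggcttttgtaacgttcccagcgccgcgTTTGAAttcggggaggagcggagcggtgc

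Of the cyclin B-CDK1 engine, its phosphatases and its CKS subunits, 2 of 8 genes fell. CCNB1, the main mitotic cyclin, stood at 13.39, 13.35, 13.37 and 13.37 in control shRNA replicates 1 to 4 and at 13.21, 13.21, 13.20 and 13.23 in YAP shRNA replicates 1 to 4. CKS2, a small CDK-binding protein, stood at 13.40, 13.43, 13.40 and 13.44 in controls and at 13.25, 13.23, 13.26 and 13.22 with the YAP shRNA. In both genes the groups were well apart and each was tight. CCNB1 fell by 0.16 on the log2 scale (SE 0.0326; limma adjusted p = 0.0116) and CKS2 by 0.18 (SE 0.0334; limma adjusted p = 0.00745). CKS1B, the paralog of CKS2, had a log2 fold change of 0.02 with a 95% interval of -0.06 to 0.10, which does not overlap the interval of CKS2, -0.25 to -0.10, although the difference between the genes was not tested. CDK1 stood at -0.04, with a 95% interval of -0.12 to 0.04. The remaining genes were CCNA2 at -0.14, CCNB2 at -0.09, CDC25C at -0.08 and CDC25B at 0.02. CCNB2 was not called (limma adjusted p = 0.106) although its groups did not overlap.

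Of 6 mitotic kinase genes 1 fell, and all 6 had values below 0. NEK2, which separates the centrosomes, stood at 10.79, 10.79, 10.73 and 10.77 in controls and at 10.64, 10.57, 10.58 and 10.53 with the YAP shRNA. It fell by 0.19 (SE 0.0384; limma adjusted p = 0.0101). TTK, the kinase that starts spindle checkpoint signalling, stood at 10.12, 10.00, 9.98 and 9.95 in controls and at 9.91, 9.87, 9.76 and 9.62 with the YAP shRNA. Its groups did not overlap, but its YAP shRNA arrays were spread and it was not called (log2 fold change -0.22, SE 0.0709; limma adjusted p = 0.0663). PLK1, BUB1, AURKA and AURKB stood at -0.12, -0.15, -0.12 and -0.08. Without control shRNA replicate 4, AURKA, BUB1 and PLK1 passed as well, and 4 of the 6 fell, where 8.25% of all genes fell.

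AURKA depended on the probe set that was read. The brightest gave -0.12, while the other 2 gave -0.20 and -0.28 and were called when every probe set of the table was tested (limma adjusted p = 0.0242 and 0.00639). Across all 107 single-symbol probe sets of the 54 genes, 14 fell and 4 rose on that basis, where 4.96% of all probe sets fell and 5.25% rose, and 88 had values below 0. Adjusted over every probe set, the calls on KIF23 (limma adjusted p = 0.0531), PTTG1 (0.0573), KIF4A (0.0576), NDC80 (0.0732) and RACGAP1 (0.0966) were lost. KIF14 and CDC25C, not called by their brightest probe sets, each had 1 dimmer probe set called on that basis. These gave -0.43 (limma adjusted p = 0.0432) and -0.15 (limma adjusted p = 0.0468), while the third CDC25C probe set, at -0.06, was not called. Of the 26 genes with several probe sets, 18 had every one of them below 0.

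Of 6 genes of the spindle checkpoint and anaphase 1 fell. PTTG1, the securin that guards sister chromatid cohesion, stood at 13.50, 13.46, 13.47 and 13.40 in controls and at 13.33, 13.27, 13.29 and 13.31 with the YAP shRNA, and fell by 0.16 (SE 0.0377; limma adjusted p = 0.0230). Its only probe set is of the kind marked as prone to cross-hybridisation, and close copies of PTTG1 exist in the genome. CDC20, the activator of the anaphase-promoting complex, stood at 12.56, 12.52, 12.46 and 12.33 in controls and at 12.35, 12.38, 12.32 and 12.42 with the YAP shRNA. Control shRNA replicate 4 lay inside the YAP shRNA range, so the groups overlapped (log2 fold change -0.10, SE 0.0561; limma adjusted p = 0.281, or 0.0439 without that array). MAD2L1, BUB1B and BUB3 of the checkpoint and UBE2C, a ubiquitin-conjugating enzyme of anaphase, ranged from -0.08 to -0.04.

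Of 3 genes of the chromosomal passenger complex beside its kinase AURKB, 1 fell. CDCA8, the borealin subunit, stood at 11.50, 11.47, 11.53 and 11.50 in controls and at 11.35, 11.35, 11.26 and 11.35 with the YAP shRNA, and fell by 0.17 (SE 0.0379; limma adjusted p = 0.0160). BIRC5, survivin, which is also cited as a YAP target, stood at 13.29, 13.34, 13.32 and 13.36 in controls and at 13.27, 13.22, 13.22 and 13.22 with the YAP shRNA. Its groups did not overlap, but it was not called (log2 fold change -0.10, 95% interval -0.18 to -0.02; limma adjusted p = 0.106). All 4 BIRC5 probe sets gave values between -0.20 and -0.10. INCENP, the scaffold of the complex, stood at -0.02 and was the 1 gene of the 54 below the median gene level.

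All 8 kinesin genes had values below 0, and 2 of them fell. KIF23, the motor of the central spindle, stood at 10.85, 10.70, 10.73 and 10.69 in controls and at 10.31, 10.60, 10.49 and 10.53 with the YAP shRNA, and fell by 0.26 (SE 0.0677; limma adjusted p = 0.0317). KIF4A, a chromosome-bound motor that sets spindle midzone length, stood at 11.91, 11.91, 11.91 and 11.82 in controls and at 11.79, 11.72, 11.69 and 11.67 with the YAP shRNA, and fell by 0.17 (SE 0.0426; limma adjusted p = 0.0261). In both genes the groups were apart, by least in KIF4A between control shRNA replicate 4 and YAP shRNA replicate 1. KIF14, a motor of cytokinesis, stood at 12.11, 12.16, 12.22 and 11.85 in controls and at 11.90, 11.86, 11.85 and 11.83 with the YAP shRNA. Here control shRNA replicate 4 lay at the YAP shRNA level, and the call on this probe set turned on it. The log2 fold change was -0.23 with all arrays (limma adjusted p = 0.0790) and -0.31 without that array (limma adjusted p = 0.00172). The dimmer KIF14 probe set gave -0.43 with all arrays and was called when every probe set was tested (limma adjusted p = 0.0432). Without control shRNA replicate 4, KIF18A, KIF20A and KIF2C also passed, and 6 of 8 kinesin genes fell, where 8.25% of all genes fell. The kinesin median was then -0.20 in place of -0.15. KIF11, the motor that pushes the spindle poles apart, stood at -0.11, and KIF20B at -0.04.

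Of 6 centromere and kinetochore genes 2 fell. CENPA, the histone variant that marks centromeres, stood at 8.86, 8.76, 8.94 and 8.78 in controls and at 8.52, 8.58, 8.59 and 8.59 with the YAP shRNA, and fell by 0.26 (SE 0.0479; limma adjusted p = 0.00613). NDC80, which grips the microtubule end, stood at 11.19, 11.09, 11.14 and 11.02 in controls and at 10.94, 10.88, 10.94 and 10.98 with the YAP shRNA, and fell by 0.17 (SE 0.0472; limma adjusted p = 0.0369). The groups did not overlap in either gene, with a narrow gap in NDC80, whose call was lost in 7 of the 8 omissions of 1 array. The 1 probe set of CENPA is also of the kind prone to cross-hybridisation. NUF2, the partner of NDC80 in the same complex, stood at -0.02 with a 95% interval of -0.11 to 0.08, and HJURP, the chaperone of CENPA, at -0.10. NDC80 lies on chromosome 18, where the median change of the measured genes was -0.04.

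CENPE and CENPF, large kinetochore proteins, were the genes most altered in the outlying control array. CENPE stood at 10.98, 11.03, 10.90 and 9.91 in controls and at 10.85, 10.84, 10.77 and 10.86 with the YAP shRNA. CENPF stood at 11.84, 11.79, 11.81 and 10.98 in controls and at 11.72, 11.73, 11.73 and 11.72 with the YAP shRNA. The other 3 control arrays lay above every YAP shRNA array in both genes, and control shRNA replicate 4 lay below all of them. The log2 fold changes of CENPE and CENPF were 0.13 (SE 0.228) and 0.12 (SE 0.179) with all arrays, and -0.14 and -0.09 without that array (limma adjusted p = 0.0709 and 0.109), so their direction rests on it. MKI67, the common proliferation marker, followed the same course, with a low value of 12.15 in that array against 12.91 to 12.96 in the other controls and 12.82 to 12.91 with the YAP shRNA. The log2 fold change of MKI67 was 0.13 (limma adjusted p = 0.687), or -0.07 without control shRNA replicate 4 (limma adjusted p = 0.255). For CKAP5 and TACC3, partners on spindle microtubules, that array lay 0.38 and 0.26 below the mean of the other controls. In all, 10 of the 54 genes lay more than 0.2 below that mean in this array. Its opposite extreme was CCNA2, 0.14 above, and for 27 of the 54 genes it lay at or below the highest YAP shRNA value. Without it the groups did not overlap, with YAP shRNA lower, for 41 of the 54 genes, beside 13.9% of all genes. The share among genes above the median level was not taken without that array. With all arrays it was 18.1%, against 10.9% of all genes.

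**Figure D2:**
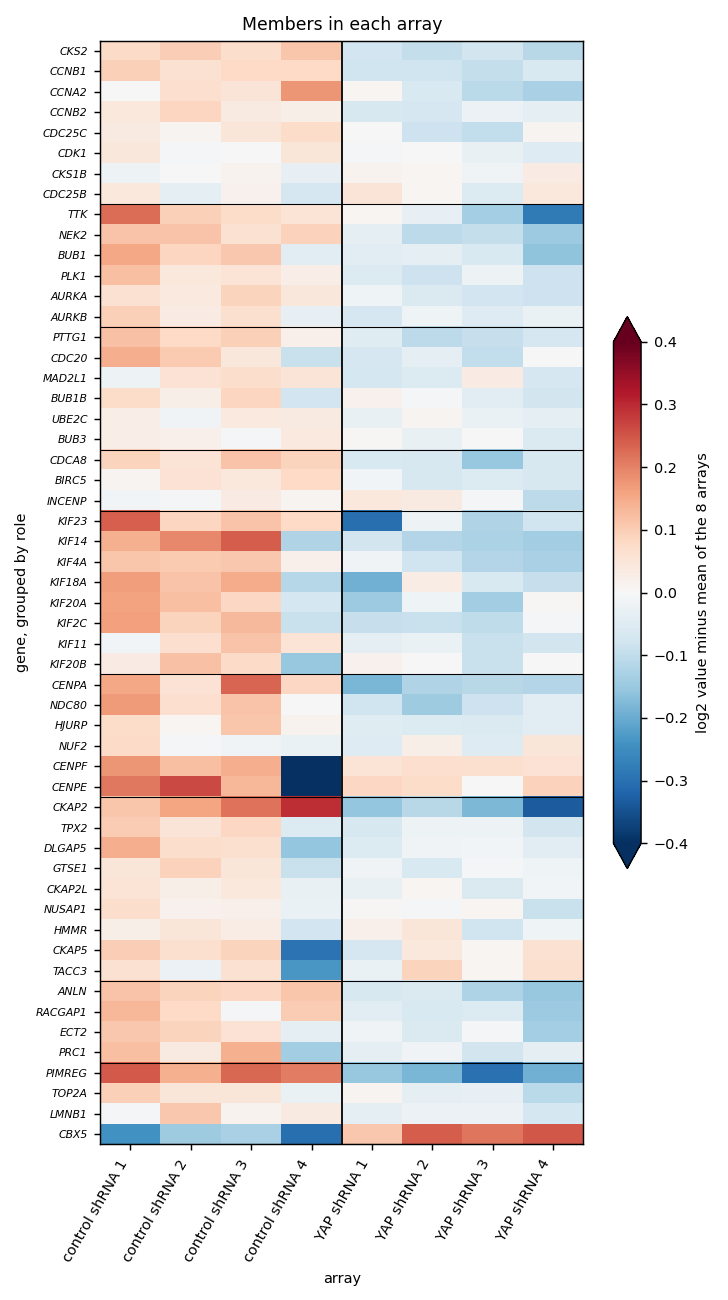
Log2 value of each of the 54 genes in each of the 8 arrays minus that gene's mean over the 8 arrays (colour, clipped at -0.4 and 0.4), with genes grouped by role between horizontal lines. Control columns are mostly red and YAP shRNA columns mostly blue; CBX5 runs the other way, and control shRNA replicate 4 is dark blue for CENPE and CENPF.

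**Figure D3:**
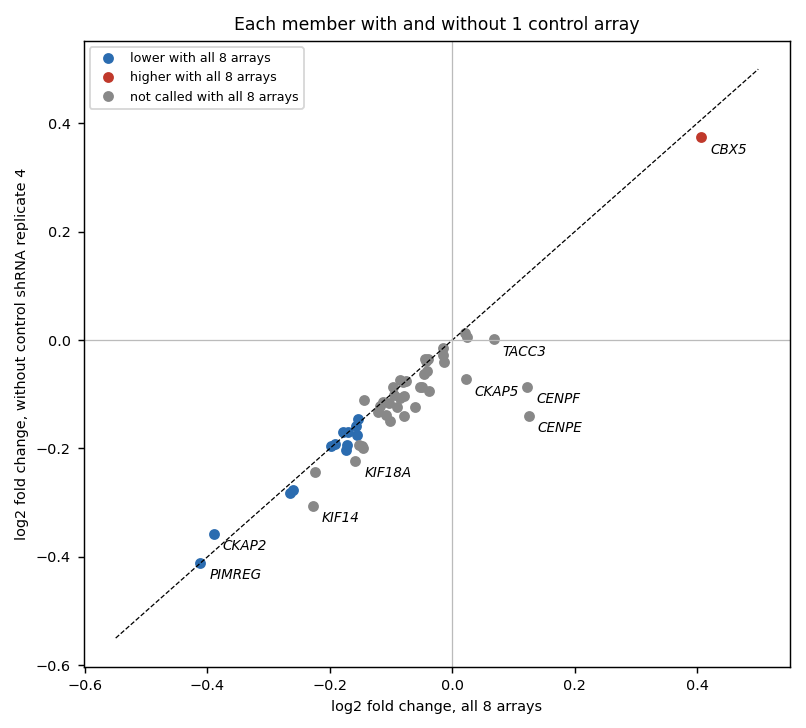
Log2 fold change (YAP shRNA minus control shRNA) of each of the 54 genes with all 8 arrays (horizontal) and without control shRNA replicate 4 (vertical), with the dashed line marking equal values. CENPE and CENPF move from 0.13 and 0.12 to -0.14 and -0.09, while PIMREG and CCNB1 stay on the line.

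Of 9 other spindle and microtubule genes 1 fell. CKAP2, a protein of spindle microtubules, stood at 10.92, 10.96, 11.02 and 11.10 in controls and at 10.65, 10.69, 10.62 and 10.47 with the YAP shRNA. It fell by 0.39, or 1.31-fold (SE 0.0612; limma adjusted p = 0.00303), and its other 2 single-symbol probe sets gave -0.40 and -0.20. CKAP2 lies on chromosome 13, whose measured genes had a median of -0.03. CKAP2L, its paralog, stood at -0.05 with a 95% interval whose bounds were -0.13 and 0.04. TPX2, the activator of Aurora A on the spindle, stood at 12.29, 12.24, 12.27 and 12.13 in controls and at 12.12, 12.16, 12.16 and 12.11 with the YAP shRNA. Control shRNA replicate 4 again lay within the YAP shRNA range, and TPX2 was not called with it (log2 fold change -0.09; limma adjusted p = 0.224) but was without it (limma adjusted p = 0.0429). HMMR, DLGAP5, NUSAP1, GTSE1, CKAP5 and TACC3 ranged from -0.06 to 0.07. GTSE1, read by a probe set prone to cross-hybridisation at -0.05, had 4 others between -0.20 and -0.11, none of them called.

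Of 4 cytokinesis genes 2 fell. ANLN, the anillin scaffold of the cleavage furrow, stood at 12.87, 12.85, 12.84 and 12.87 in controls and at 12.70, 12.70, 12.64 and 12.61 with the YAP shRNA, and fell by 0.20 (SE 0.0376; limma adjusted p = 0.00771). RACGAP1, which joins KIF23 in the centralspindlin complex, stood at 12.56, 12.51, 12.42 and 12.53 in controls and at 12.38, 12.37, 12.37 and 12.28 with the YAP shRNA, and fell by 0.15 (SE 0.0450; limma adjusted p = 0.0497). Both members of centralspindlin passed the test, but neither call was firm: RACGAP1 lost it in 7 of the 8 omissions of 1 array, control shRNA replicate 4 among them (limma adjusted p = 0.0730), and KIF23 in 6. PRC1, the bundler of midzone microtubules, and ECT2, which centralspindlin recruits to the midzone, stood at -0.08 and -0.11.

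The widest changes lay among genes of chromatin and the nucleus, in opposite directions. PIMREG, a mitotic regulator that binds the clathrin assembly protein PICALM, stood at 10.22, 10.12, 10.21 and 10.18 in controls and at 9.82, 9.79, 9.68 and 9.79 with the YAP shRNA. CBX5, heterochromatin protein HP1 alpha, stood at 10.28, 10.38, 10.39 and 10.22 in controls and at 10.63, 10.76, 10.73 and 10.77 with the YAP shRNA. The groups were far apart in both. PIMREG fell by 0.41 (SE 0.0455; limma adjusted p = 0.000513) and CBX5 rose by 0.41 (SE 0.0542; limma adjusted p = 0.00136), each 1.33-fold. Of 6 CBX5 probe sets 4 rose by 0.32 to 0.41, 1 stood at 0.15 and 1 at -0.06. None of the 3 promoter windows of CBX5 held a CHR, and PIMREG had no window. TOP2A, the topoisomerase that untangles sister chromatids, and LMNB1, a nuclear lamin, both stood at -0.08.

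**Figure D4:**
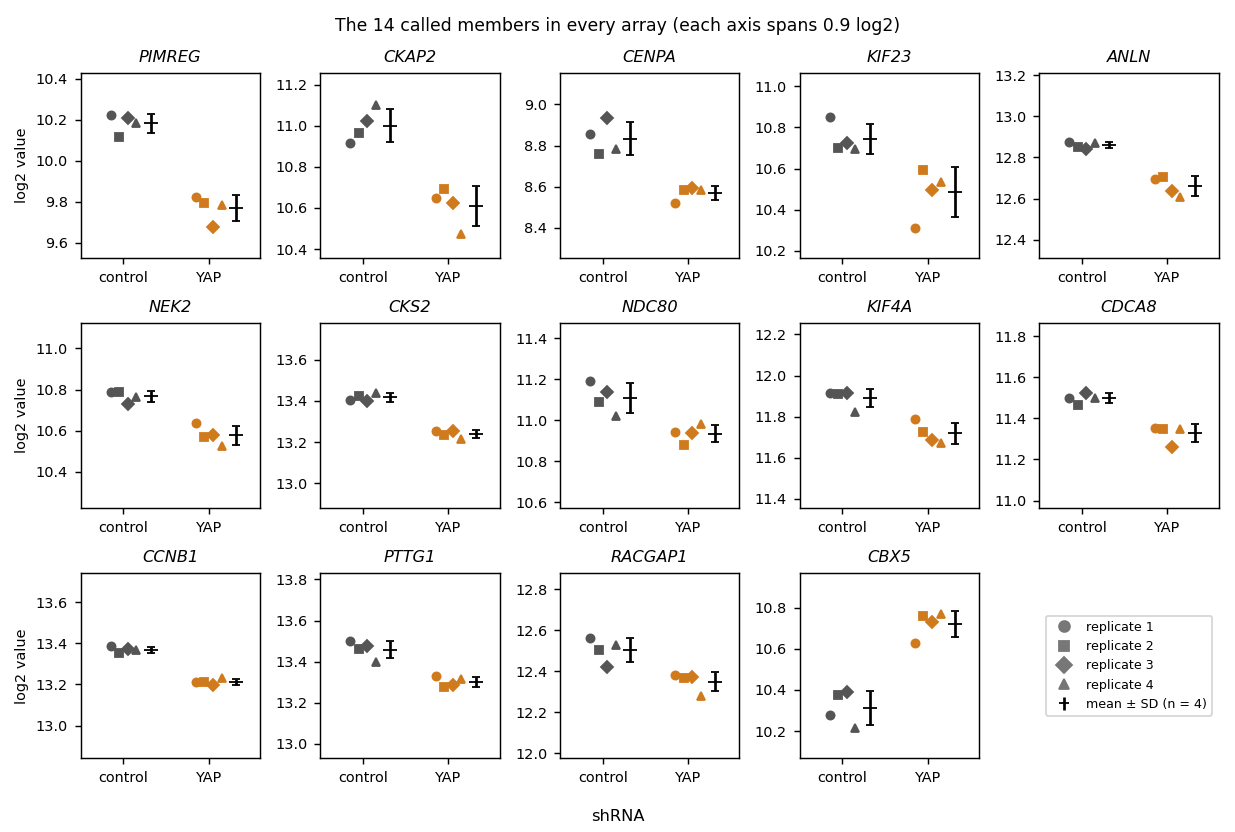
Log2 value in every array for the 14 called genes (points, one symbol per replicate number) with the mean and SD of each group of 4; every vertical axis spans 0.9 log2 units. In all 14 panels the groups do not overlap, with the widest gaps in PIMREG, CKAP2 and CBX5.

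Other genes of the division machinery, listed by function, moved unevenly. Of 30 further kinetochore genes 9 fell and 0 rose (median -0.11), and 26 had values below 0. SKA1 fell most, by 0.51 (limma adjusted p = 0.000753), followed by MIS18A, which primes centromeres for new CENPA (fell by 0.46; limma adjusted p = 0.000203). SKA2 and SKA3, picked after their values were seen as the remaining subunits of the SKA complex that works beside NDC80 at the microtubule, fell by 0.23 and 0.29. SKA1, read by a probe set prone to cross-hybridisation, lies on chromosome 18 and SKA3 on chromosome 13. Of 25 further spindle and cytokinesis genes 8 fell and 0 rose (median -0.07), with CIP2A, a PP2A inhibitor, down by 0.48 and ARHGAP11A by 0.33. All measured genes of both lists lay above the median gene level, where 11.4% of all genes fell and 15.2% rose. Without control shRNA replicate 4 the counts were 14 and 9 fallen, with 0 risen in each list. Without that array 8.25% of all genes fell and 11.4% rose. ASPM, picked after its values were seen, had the same low control array as MKI67, at 11.46 against 12.09 to 12.12 in the other controls.

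Condensin and cohesin, the anaphase-promoting complex and the S phase genes had medians nearer 0. Of 20 condensin and cohesin genes NCAPG2, a condensin subunit, rose by 0.15 and SGO1, the protector of centromeric cohesion, fell by 0.18 (median -0.02). Of 16 genes of the anaphase-promoting complex and its regulators, its inhibitor FBXO5 fell by 0.30 and its subunit ANAPC10 by 0.16 (median -0.03). FBXO5 was read by a probe set prone to cross-hybridisation. Of 43 S phase genes 5 fell and 2 rose (median -0.05). Nearly all genes of these lists lay above the median gene level, where 11.4% of all genes fell and 15.2% rose. The S phase falls were thus near that share, and the S phase rises were below theirs. TYMS and CDC6 fell by 0.31 and 0.27, and ORC1 and GINS3 rose by 0.20 and 0.17. The S phase promoters differ from those above, with a CHR in 3 of 49 windows (6.12%) and a CCAAT box in 59.2%. The shares of fallen genes, 13 of 54 for the mitotic list and 5 of 43 for S phase, were not tested against each other.

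**Figure D5:**
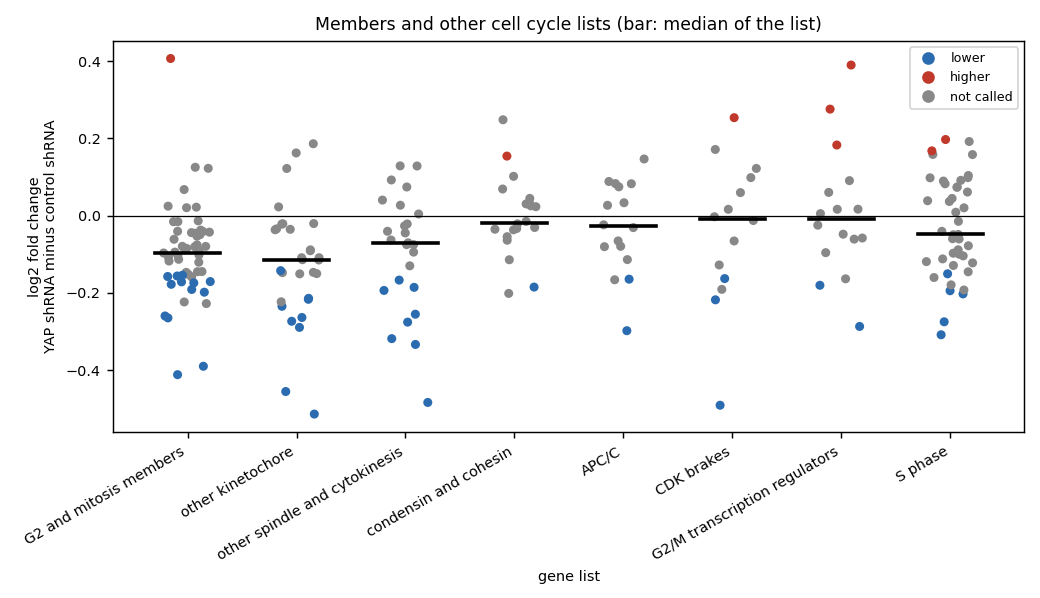
Log2 fold change (YAP shRNA minus control shRNA, vertical axis) of each gene in the 54-gene list and in 7 other cell cycle lists, with the median of each list as a bar; blue fell, red rose and grey was not called. The medians of the mitotic list (-0.10) and of the further kinetochore genes (-0.11) are the lowest, and those of the regulators and brakes (both -0.01) lie nearest 0.

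Of 16 regulators of these genes, all above the median gene level, 2 fell and 3 rose. Among all genes above that level 11.4% fell and 15.2% rose, so these counts were near those shares. FOXM1, the activator of late cell cycle genes, stood at 12.26, 12.17, 12.26 and 12.13 in controls and at 12.11, 12.00, 12.02 and 11.97 with the YAP shRNA, and fell by 0.18 (limma adjusted p = 0.0357). RBL2, the p130 pocket protein of DREAM, stood at 9.82, 9.83, 9.69 and 9.69 in controls and at 10.04, 10.02, 10.05 and 10.01 with the YAP shRNA, and rose by 0.28 (limma adjusted p = 0.00452). In both genes the groups did not overlap, though the FOXM1 probe set was of the kind prone to cross-hybridisation. E2F5 rose by 0.39 and TFDP2, a dimerization partner of E2F proteins, fell by 0.29. E2F4, an E2F protein of DREAM, named after its value was seen, rose by 0.18 (limma adjusted p = 0.0321). The other 11 of 16 regulators, MYBL2 and most of the listed subunits of DREAM among them, were not called. Their log2 fold changes ran from -0.16 to 0.09. E2F5 lies on chromosome 8, whose measured genes had a median of 0.07, and RBL2 and E2F4 lie on chromosome 16, with a median of 0.04.

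Of 14 genes that restrain CDKs or the cell cycle, CHEK2, a DNA damage kinase, rose by 0.25, while the stress-response gene GADD45B fell by 0.49 and CDKN3, a phosphatase of CDKs, by 0.22. GADD45A, named after its value was seen, fell by 0.16. In all, 3 of the 14 fell and 1 rose, where 7.17% of all genes fell and 9.49% rose. Among genes above the median level the shares were 11.4% and 15.2%. CDKN1A, which encodes the CDK inhibitor p21, stood at 11.31, 11.35, 11.33 and 11.71 in controls and at 11.62, 11.56, 11.65 and 11.57 with the YAP shRNA. The high control value was again that of replicate 4, above every YAP shRNA array, while the other 3 controls lay below all of them. CDKN1A was not called with all arrays (log2 fold change 0.17; limma adjusted p = 0.250) and rose by 0.27 without that array (limma adjusted p = 0.00261). Without it, 4 of the 14 fell and 3 rose, where 8.25% of all genes fell and 11.4% rose.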

How the data were processed

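The authors deposited 1 value per array for each of 54675 probe sets, read here as log2 from the range of 1.72 to 14.9; no source used here gives their background correction, summarisation or normalization. They were used with no further normalization. Before hybridisation, total RNA from a column kit was amplified and labelled with biotin, per the labels' protocols. GEO's platform annotation gave 1 symbol to 41097 probe sets; those with none or several were left out. Each of 19775 genes was represented by its probe set with the highest mean. The fit was limma 3.58.1 in R 4.3.3 (YAP shRNA minus control shRNA, empirical Bayes, no block, no filter), adjusted by Benjamini-Hochberg over all genes and called below 0.05; it was tested on simulated data. The 54 genes and the lists were chosen with earlier results of these data known. Values in every array are given for called genes and the 2 largest changes of each role. Other lists name up to 2 risen and 2 fallen genes plus MKI67, FOXM1 and CDKN1A. SKA2, SKA3, ASPM, E2F4 and GADD45A were added after their values were seen, and MYBL2 is named as uncalled. Replicate numbers were not taken to pair the samples, a point that the labels do not settle. Promoters came from RefSeq (GRCh38.p14). The number of arrays limits the precision. Alternatives varied the scaling, the filter, the probe set rule, the variance model and the threshold, added the replicate number as a block, or omitted 1 array at a time.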

Additional observations from a re-analysis of the deposited data

Results flagged for a closer look

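In 162 groups of 4 values, those of the 54 genes, the other genes named and the mean over the 54, 15 held a single array well away from its 3 companions. About 8.1 would be flagged by chance if the groups were independent. They share the same 8 arrays, and some genes, ASPM among them, were named after their values were seen. The count of 15 therefore cannot be weighed against 8.1. In 7 cases the array was control shRNA replicate 4. That array was low for CENPE at 9.91 (10.90 to 11.03 in the other controls), for CENPF at 10.98 (11.79 to 11.84) and for CKAP5 at 11.38 (11.74 to 11.77). It was also low for KIF4A at 11.82 (11.91 in each of the others), for MKI67 at 12.15 (12.91 to 12.96) and for ASPM at 11.46 (12.09 to 12.12). It was high for CDKN1A at 11.71 (11.31 to 11.35). Elsewhere among the controls, TYMS was high at 11.63 in replicate 1 and YAP1 at 12.77 in replicate 3.

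Among YAP shRNA arrays, CENPA was low at 8.52 in replicate 1 (8.58 to 8.59 in the others), and CDCA8 was low at 11.26 in replicate 3 (11.35 in each of the others). MAD2L1 was high at 12.95 in replicate 3 (12.84 to 12.86) and KIF2C at 10.49 in replicate 4 (10.40 to 10.41). NUSAP1 and RACGAP1 were low in replicate 4, at 12.44 (12.52 to 12.54) and 12.28 (12.37 to 12.38). The cause of these departures was not tested.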

How the results depend on the processing

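PIMREG, CKAP2, CENPA and CBX5 kept their calls under every one of the 20 other settings in which they were measured. The count of fallen genes, 13 with the settings of the report, was less steady. It was 23 without genes below the median level (17.4% of the genes then tested fell), 21 with a mean-variance trend (9.6%), 20 at a threshold of 0.1 (9.98%), 5 at a threshold of 0.01 (3.86%) and 6 (6.38%) without probe sets of suffix _x_at or _s_at, where 41 of the 54 genes were still measured. Testing every probe set, a setting chosen after the data were seen, gave 14 falls and 4 rises among probe sets of the 54 genes. Quantile normalization, median centring, a milder filter on dim genes, averaged probe sets, robust empirical Bayes and array weights gave 12 to 17, where 6.9% to 11.3% of the genes tested fell. Of 20 settings, or 19 for PTTG1 and RACGAP1, KIF4A was called in 12, PTTG1 in 11, KIF23 and NDC80 in 10 and RACGAP1 in 5. Leaving out 1 array in turn gave 8 to 22 falls, with 22 without control shRNA replicate 4 (12 of the 13 among them; 8.25% of all genes fell) and, where 5.15% to 6.04% of all genes fell, 8 to 10 without any other array; the count was 8 without control shRNA replicate 1 or 2 or YAP shRNA replicate 3 or 4; 1 gene rose each time, and the median log2 fold change of the 54 genes lay between -0.12 and -0.09.

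With the replicate number as a block, 3 genes fell (CENPA, CKAP2 and PIMREG; 4.47% of all genes) and 1 rose. Deviations of same-numbered arrays correlated at -0.17, -0.06, 0.0020 and -0.21 for replicates 1 to 4, and no array correlated best with the array of its own number in the other group, so the numbers were not taken to pair the samples.

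Directions turned only for genes that were not called: NUF2 to 0.0021 with quantile normalization, CCNB2 and AURKB to 0.047 and 0.029 with probe sets averaged per gene, CENPF to -0.15 without _x_at and _s_at probe sets, and CENPE, CENPF and CKAP5 to -0.057, -0.016 and -0.036 with array weights. With arrays left out in turn, NUF2 ranged from -0.034 to 0.00732, HMMR from -0.041 to 0.010, INCENP from -0.032 to 0.016, CENPE from -0.14 to 0.23, CENPF from -0.086 to 0.20 and CKAP5 from -0.072 to 0.058. The cause of these shifts was not tested.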
